A study of Homo sapiens with 18 samples.

Results

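The genes described here are 100 intergenic long noncoding RNA genes, those with LINC and digits as their symbol, on which most ribosome footprints were counted after pull-down of FLAG-tagged ribosomes. The count table had 57808 rows, of which 2233 carried such a symbol. Of these, 167 had 5 or more counts in both libraries of at least 1 group of FLAG footprints, and the 100 with the highest group mean in CPM (counts of the gene per 1000000 counts of the library) were kept. The genes were thus chosen by FLAG footprints, so their levels and their ratios between stages are given as a description, with no test. Highest were definitive endoderm for 56 genes, stem-cell-derived beta-like cells for 34 and pluripotent cells for 10. The last genes inside the limit were LINC01090 at 1.36 CPM, LINC01761 at 1.35 and LINC01405 at 1.33, and the first outside it were LINC00862 at 1.31, LINC01980 at 1.28 and LINC01012 at 1.27.

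The cells were MEL1, an established line of human embryonic stem cells whose insulin locus drives GFP. The stages compared were undifferentiated cells (hPSC), definitive endoderm (DE, the precursor of gut and pancreas), and beta-like cells (sBC) differentiated in a magnetic stirring bioreactor and then sorted by GFP. Each of 9 groups had 2 libraries: RNA of hPSC, of DE and of both sorted sBC fractions, total footprints (Ribo) of hPSC and DE, and FLAG footprints (IP-Ribo) of hPSC, DE and the GFP+ fraction. Footprints are the RNA pieces that ribosomes shield from RNase I, here prepared without cycloheximide, and FLAG footprints are those kept by an antibody against the tag on ribosomal protein RPL22. In the labels hPSC and DE of all 3 assays have the genotype RPL22-FLAG, the GFP+ sBC for FLAG footprints got the tag by lentivirus, and the sorted sBC for RNA carry the reporter with no tag named. Genotype and stage therefore cannot be told apart in RNA of GFP+ sBC against hPSC or DE. The same holds for FLAG footprints of GFP+ sBC against those of hPSC or DE. Within GFP+ sBC, genotype and assay cannot be told apart when FLAG footprints are set against RNA. No label states whether both libraries of a group stem from different cultures; p-values therefore measure only how far these libraries spread, which may be technical.

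Depth ran from 6606248 to 92533993 counts per library, and FLAG footprints of DE (6606248 and 19863729) and GFP+ sBC (8734208 and 7590105) held the shallowest libraries. For a gene at 0 in a group, bounds below use a floor of 3 counts summed over both of its libraries. The 6 hPSC markers (such as POU5F1 and NANOG) summed to between 2045 and 6790 CPM in hPSC libraries and still to between 185 and 2266 in DE. The 6 DE markers (such as SOX17) summed to between 337 and 2852 CPM in DE and to at most 15.6 in hPSC. In RNA of GFP+ sBC the 6 beta-like markers summed to 6411 and 7012 CPM. The 4 other endocrine genes, among them GCG, summed to more there, 37783 and 26905 CPM. In FLAG footprints of GFP+ sBC the beta-like sums were 3153 and 2986 CPM, and the other endocrine sums 43789 and 29564. The label beta cell is therefore read here as the name of the sort. Bulk sums do not show whether these genes were expressed in the same cells or in different ones. The libraries are bulk, so fewer cells of a type and less RNA per cell cannot be told apart in any result below.

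Long intergenic noncoding RNAs are transcripts from between protein-coding genes, without a long conserved reading frame. Many act in the nucleus, often on a neighbouring gene, while those that reach the cytosol can be bound by ribosomes, and some genes once listed as noncoding have turned out to encode small proteins. A count of footprints over a gene does not separate reading frames from other RNA protected in the same stretch, such as a tRNA or a small nuclear or nucleolar RNA with its own gene there.

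Promoter sequences (250 bases before to 50 after the start, 5′ to 3′ on the gene's strand, GRCh38.p14) were found in RefSeq for 57 of the 100 genes. They are shown for 9 genes on which the later results turn: genes that rose from hPSC to DE (LINC00261, LINC01612, LINC00479, LINC02830, LINC02955), one that fell (LINC02570), one that rose in GFP+ sBC (LINC02197), one whose footprints rose against its RNA (LINC00910) and the gene with most footprints (LINC01783). Capitals mark matches, on either strand, to 4 short motifs: the octamer ATGCAAAT bound by POU factors, TGTTTAC of forkhead factors, AGATAA of GATA factors, and the TATA box TATAAA. The window of LINC00261 lies at chr20:22578593-22578892 on the minus strand, that of LINC01612 at chr4:170226341-170226640 on the plus strand, that of LINC00479 at chr21:41715726-41716025 on the minus strand, that of LINC02830 at chr7:125153565-125153864 on the minus strand. The window of LINC02955 lies at chr12:22699609-22699908 on the plus strand, that of LINC00910 at chr17:43388849-43389148 on the minus strand, that of LINC02570 at chr6:30848110-30848409 on the minus strand, that of LINC02197 at chr5:71446707-71447006 on the minus strand, that of LINC01783 at chr1:16535603-16535902 on the minus strand.
LINC00261: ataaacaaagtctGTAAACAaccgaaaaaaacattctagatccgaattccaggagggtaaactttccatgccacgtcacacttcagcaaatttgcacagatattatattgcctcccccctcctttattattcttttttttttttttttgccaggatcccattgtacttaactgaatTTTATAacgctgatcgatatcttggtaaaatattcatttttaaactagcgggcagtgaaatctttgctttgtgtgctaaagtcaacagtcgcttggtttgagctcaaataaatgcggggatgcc
LINC01612: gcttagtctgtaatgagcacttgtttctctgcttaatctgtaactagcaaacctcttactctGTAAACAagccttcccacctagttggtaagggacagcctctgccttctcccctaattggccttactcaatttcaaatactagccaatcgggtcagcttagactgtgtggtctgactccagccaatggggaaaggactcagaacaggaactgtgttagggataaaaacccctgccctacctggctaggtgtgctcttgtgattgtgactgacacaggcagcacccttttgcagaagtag
LINC00479: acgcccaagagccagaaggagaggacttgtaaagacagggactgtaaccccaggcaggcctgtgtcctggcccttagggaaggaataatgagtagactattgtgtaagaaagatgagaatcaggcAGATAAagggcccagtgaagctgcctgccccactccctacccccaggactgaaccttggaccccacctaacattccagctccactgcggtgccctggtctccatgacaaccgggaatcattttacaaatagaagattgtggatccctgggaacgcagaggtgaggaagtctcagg
LINC02830: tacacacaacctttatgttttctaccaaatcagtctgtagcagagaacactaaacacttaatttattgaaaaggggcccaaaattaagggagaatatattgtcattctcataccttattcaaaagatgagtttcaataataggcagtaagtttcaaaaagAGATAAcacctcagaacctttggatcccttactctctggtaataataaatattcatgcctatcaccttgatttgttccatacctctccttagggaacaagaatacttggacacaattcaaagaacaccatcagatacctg
LINC02955: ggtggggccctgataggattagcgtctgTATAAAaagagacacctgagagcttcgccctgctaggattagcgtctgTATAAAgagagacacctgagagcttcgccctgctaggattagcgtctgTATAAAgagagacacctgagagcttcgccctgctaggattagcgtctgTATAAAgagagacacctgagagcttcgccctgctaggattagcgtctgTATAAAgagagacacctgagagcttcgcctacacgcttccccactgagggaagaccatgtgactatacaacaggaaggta
LINC00910: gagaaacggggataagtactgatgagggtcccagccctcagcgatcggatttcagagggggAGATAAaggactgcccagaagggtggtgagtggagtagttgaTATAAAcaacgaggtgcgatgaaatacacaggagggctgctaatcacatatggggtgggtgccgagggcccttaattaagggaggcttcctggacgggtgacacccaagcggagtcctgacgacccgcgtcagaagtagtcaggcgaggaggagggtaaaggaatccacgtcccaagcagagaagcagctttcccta
LINC02570: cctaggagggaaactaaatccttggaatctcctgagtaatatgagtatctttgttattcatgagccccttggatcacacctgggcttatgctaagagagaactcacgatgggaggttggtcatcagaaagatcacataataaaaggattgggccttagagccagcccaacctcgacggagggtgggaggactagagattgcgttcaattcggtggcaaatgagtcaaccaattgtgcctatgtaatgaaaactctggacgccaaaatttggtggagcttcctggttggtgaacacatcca
LINC02197: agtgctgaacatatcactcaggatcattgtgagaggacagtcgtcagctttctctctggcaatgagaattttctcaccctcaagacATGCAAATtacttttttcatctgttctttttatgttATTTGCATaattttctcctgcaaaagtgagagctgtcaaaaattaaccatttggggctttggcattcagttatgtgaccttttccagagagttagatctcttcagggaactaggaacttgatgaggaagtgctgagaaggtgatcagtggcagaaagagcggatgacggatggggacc
LINC01783: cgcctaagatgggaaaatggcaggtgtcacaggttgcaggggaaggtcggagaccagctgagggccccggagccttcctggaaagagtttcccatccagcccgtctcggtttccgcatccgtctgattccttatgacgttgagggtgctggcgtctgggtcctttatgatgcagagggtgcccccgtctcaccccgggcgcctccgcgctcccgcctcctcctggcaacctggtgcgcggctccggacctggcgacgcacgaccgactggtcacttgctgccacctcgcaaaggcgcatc
LINC00261 held a forkhead and a TATA box match, LINC01612 a forkhead match, LINC00479 and LINC02830 a GATA match each, and LINC00910 both a GATA and a TATA box match. The window of LINC02955 repeated TATAAA 5 times, and that of LINC02197 held the octamer 2 times, once on each strand. LINC02570 and LINC01783 held none of the 4. The forkhead motif was in 4 of the 57 promoters (7.02%, LINC00261, LINC00511, LINC01612 and LINC01873), in 3.42% of all 35116 RefSeq promoters and in 4.75% of 1580 LINC promoters. The octamer was in 1.75% of the 57, 1.77% of all and 2.53% of LINC promoters. GATA was in 14.0% of the 57, 10.3% of all and 16.7% of LINC promoters, and the TATA box in 14.0%, 11.5% and 16.3%, so for these 3 motifs the 57 lay below LINC promoters in general. A match is a description of letters and not a binding site.

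Some of the genes share sequence or ground, so their counts are not independent. LINC00869, LINC01138 and LINC01145, all on chromosome 1, hold the same run of 54 bases in their promoters, and LINC00869 and LINC01145 share 152 bases. The run common to the 3 genes shows how close these copies are.
Shared run: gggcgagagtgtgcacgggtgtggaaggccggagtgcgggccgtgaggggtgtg
LINC02257 and LINC02474 overlap by 12111 bases on chromosome 1, and LINC00662 and LINC02987 by 510 bases on chromosome 19. In all, 5 genes overlap a protein-coding gene, among them LINC01133 with SLAMF9 and LINC02210 with LINC02210-CRHR1. The way counts were split between such genes, and whether strand was used, is not given in the sources used here. Of the values above 0 for the 100 genes, 68.3% were not whole numbers (more than 0.0005 from one), against 58.8% over all rows, so part of their counts had been divided among genes.

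LINC01783 had by far the most FLAG footprints in all 3 stages. It measured 759 and 665 CPM in hPSC, 1448 and 226 in DE, and 688 and 798 in GFP+ sBC, so the 3 stages overlapped. Its span of 1762 bases at chr1:16533891-16535652 (RefSeq, GRCh38.p14) holds the U1 small nuclear RNA pseudogene RNU1-6P and the glutamate tRNA gene TRE-TTC4-1. In total footprints it measured 1920 and 1865 CPM in hPSC, and in DE 162625 CPM in replicate 1 against 5045 in replicate 2. That is 16.3% of all counts of DE Ribo replicate 1 (exact binomial interval at 95% from 16.2% to 16.3%, counting error only) and 0.505% of replicate 2. Its RNA stayed at or below 1.84 CPM in all 8 RNA libraries.

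Of the next genes, some had small RNA genes in the span and others had none. LINC01905 measured 61.7 and 38.5 CPM of FLAG footprints in hPSC, 16.3 and 24.2 in DE, and 82.0 and 574 in GFP+ sBC, with GFP+ replicate 2 far above replicate 1. LINC00324, whose 3414 bases on chromosome 17 contain 4 tRNA genes, measured 48.8 and 37.6 CPM in hPSC, 75.4 and 29.2 in DE, and 94.9 and 220 in GFP+ sBC. LINC00910, which contains the U2 pseudogene RNU2-4P, measured 7.83 and 5.82 CPM in hPSC, 43 and 6.68 in DE, and 13.0 and 5.82 in GFP+ sBC. All 3 were present in every stage.

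LINC00458, LINC01356, LINC02413 and LINC00678 contain no small RNA gene and had a clear stage pattern. LINC00458, a transcript known from human pluripotent cells, measured 12.1 and 16.1 CPM of FLAG footprints in hPSC, 91 and 49.9 in DE and 0.192 and 0.132 in GFP+ sBC. LINC01356 measured 9.97 and 9.31 CPM in hPSC and 60.0 and 49.5 in DE, and LINC02413 0.721 and 0.303 in hPSC and 53.9 and 24.8 in DE, with both at 0 in GFP+ sBC. LINC00678 had the opposite order, with 40.6 and 36.3 CPM in hPSC, 5.22 and 11.7 in DE, and 0.228 and 0 in GFP+ sBC. In each of these 4 genes the hPSC and DE libraries did not overlap, and GFP+ sBC lay below both.

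Among genes highest in GFP+ sBC, LINC01222 measured 11.4 and 38.7 CPM of FLAG footprints there, against 1.99 and 1.3 in hPSC and 0.908 and 1.06 in DE. LINC02381 measured 7.10 and 8.70 CPM in GFP+ sBC, 0.605 and 0.201 in DE, and 0.0486 and 0 in hPSC. LINC01128 measured 19.1 and 8.45 CPM in GFP+ sBC, and 2.29 and 2.21 in hPSC. LINC02593 rested on 1 library there, with 1.88 and 21.5 CPM. LINC00665, reported elsewhere to encode a micropeptide, was highest in DE with 38.4 and 23.0 CPM against 7.10 and 11 in hPSC and 1.41 and 4.36 in GFP+ sBC.

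**Figure D1:**
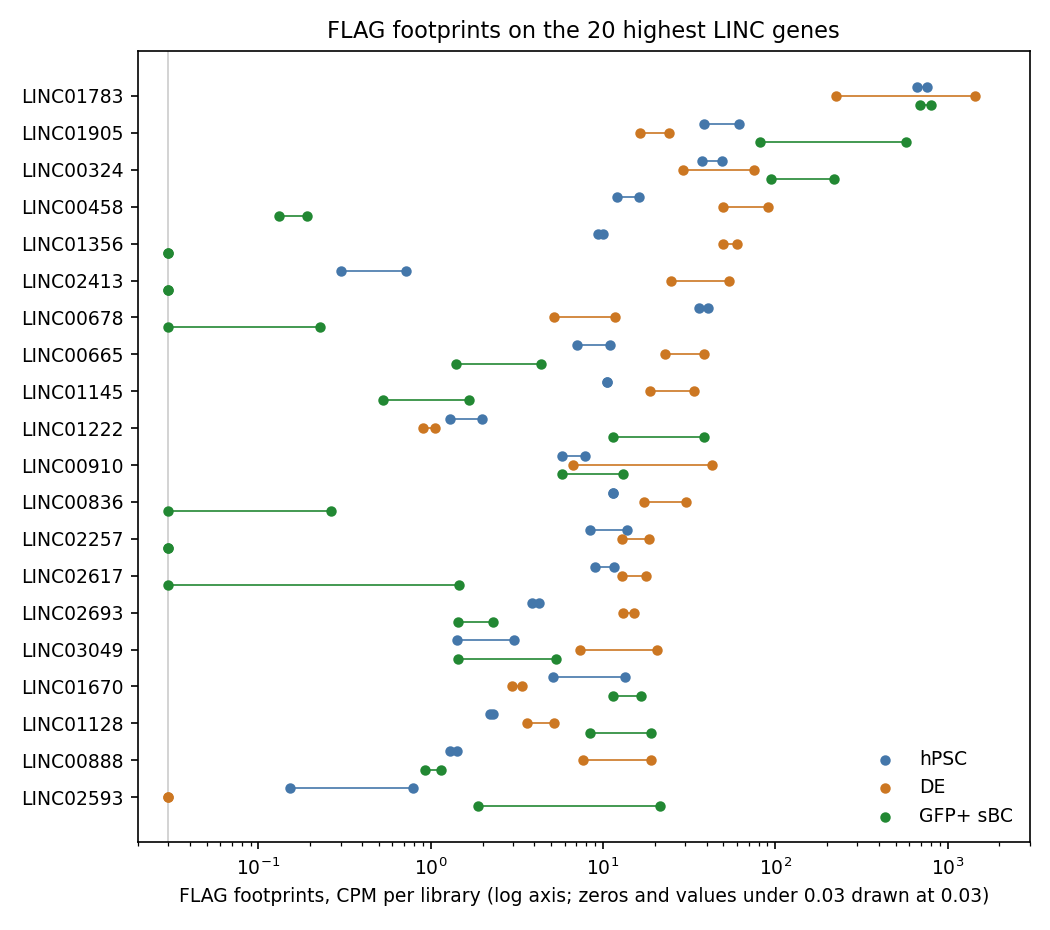
FLAG footprints (x axis, CPM per library on a log axis, with values under 0.03 drawn at 0.03) of the 20 highest genes (rows); each dot is 1 library and each line joins the 2 libraries of a stage. LINC01783, LINC01905 and LINC00324 are high in every stage, while LINC02413 runs from 0 in GFP+ sBC to 53.9 in DE.

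Of the 100 genes, 98 were located in RefSeq, and 13 of these (13.3%) had a small RNA gene or pseudogene other than a microRNA (tRNA, small nuclear or nucleolar RNA and the like) inside their span. Among the other located LINC genes it was 81 of 2081 (3.89%). The genes are longer, with a median span of 20900.5 bases against 13651. Among spans of up to 20000 bases, not matched further for length, the counts were 6 of 49 (12.2%) against 15 of 1267 (1.18%). The part of span length was not tested. Because the genes were chosen by footprint counts, nothing is read from these shares. Of the 13, 6 were in the first 20 places (LINC01783, LINC01905, LINC00324, LINC01145, LINC00910 and LINC00888) and 7 among the other 78 located genes. LINC00888 holds 2 named snoRNA genes, SNORA63D and SNORA63E. The tables give spans and not exons, so the position of these small RNA genes relative to exons was not analysed here, and their part in the footprint counts was not tested.

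FLAG footprints were compared with RNA of the stage in which they were highest, each on the scale of CPM. RNA was at 1 CPM or more for 70 of the 100 genes, between 0.1 and 1 for 17, and under 0.1 for 13. Of these 13, 10 were among the 34 genes highest in GFP+ sBC, 2 among the 56 highest in DE and 1 among the 10 highest in hPSC. In 44 genes the footprint CPM exceeded the RNA CPM. Taking genes with RNA above 0 and 5 or more counts in both FLAG libraries, the median ratio of FLAG footprint to RNA CPM was 0.316 in hPSC, 0.402 in DE and 0.394 in GFP+ sBC for these genes, and 0.411, 0.573 and 0.418 for protein-coding genes. More footprint than RNA CPM was found for 22 of 65 of these LINC genes in hPSC and 28 of 71 in DE. In GFP+ sBC it was 17 of 47. Among protein-coding genes the share was 18.18%, 25.27% and 17.98%, so it was lower although their medians were higher. The ratio has no unit of length in it, and the LINC genes were chosen for the numerator. In GFP+ sBC the labels also give the cells of the 2 assays different genotypes.

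LINC01222 is the clearest case of footprints without RNA: it had 0 counts in all 8 RNA libraries. LINC00423, LINC00656 and LINC01471 were also at 0 in all 8. In GFP+ sBC their FLAG footprints were 0.801 and 6.32 CPM for LINC00423, 0.114 and 6.98 for LINC00656, and 4.24 and 0.395 for LINC01471. In each of these 3 genes 1 GFP+ library was below 1 CPM and the other above 4. LINC01624 had 0 RNA in hPSC, DE and GFP+ sBC and 0.478 and 0.439 CPM in GFP- sBC, and its FLAG footprints were 6.86 and 5.67 CPM in hPSC, 3.18 and 6.59 in DE, and 4.01 and 8.30 in GFP+ sBC. In all, 10 genes were under 0.1 CPM in each of the 4 RNA groups, 8 of which had most FLAG footprints in GFP+ sBC.

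Across the 100 genes, Spearman's rho between the 2 libraries of FLAG footprints was 0.923 in hPSC, 0.864 in DE and 0.732 in GFP+ sBC, against 0.964 to 0.997 in the RNA groups. Between FLAG and total footprints of a stage it was 0.894 in hPSC and 0.904 in DE. Between FLAG footprints and RNA it was 0.562 in hPSC, 0.594 in DE and 0.304 in GFP+ sBC. These are descriptions across genes, which are not independent and share the depth of their libraries.

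**Figure D2:**
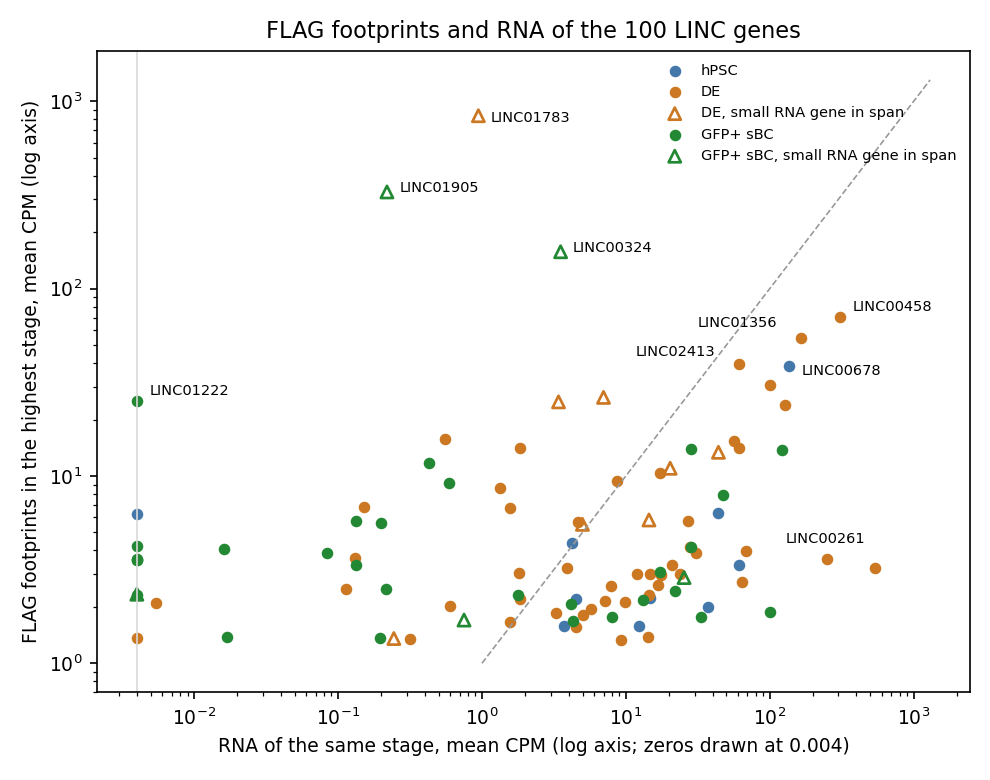
Mean RNA (x axis) against mean FLAG footprints (y axis) in the stage with most FLAG footprints, both in CPM on log axes, with RNA of 0 drawn at 0.004; colours give the stage, triangles genes with a small RNA gene in the span, and the dashed line equal CPM. LINC01783, LINC01905 and LINC01222 lie far above the line, LINC00458, LINC00678 and LINC00261 below it.

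RNA, which was not used to choose the genes, was tested in 4 comparisons with edgeR's quasi-likelihood test and Benjamini-Hochberg adjustment over all genes (adjusted p under 0.05). From hPSC to DE, LINC00479, LINC02413 and LINC00261 rose most and LINC02570, LINC00707 and LINC00698 fell most. LINC00261, which lies beside the endoderm factor gene FOXA2 and is known as a transcript of endoderm, had 3.12 and 2.95 CPM in hPSC and 263 and 239 in DE, a log2 fold change of 6.44 ± 0.08 (SE, adjusted p = 9.07e-13). LINC00479 went from 0.138 and 0.0818 CPM to 24.0 and 23.9 (7.83 ± 0.15, adjusted p = 1.69e-11), and LINC02413 from 0.476 and 0.502 to 59.6 and 63.6 (7.04 ± 0.09). All 3 had libraries that did not overlap.

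LINC02830 (6.13 ± 0.23) and LINC02593 (5.99 ± 0.28) rose as well on the log2 scale. LINC00458 rose from 121 and 111 CPM to 315 and 303, and LINC01356 from 25.5 and 29.0 to 169 and 162. On the other side LINC00707 fell from 34.7 and 40.0 CPM to 0.887 and 0.666 (log2 -5.52 ± 0.13, adjusted p = 8.91e-10), and LINC02570 from 3.02 and 4.45 to 0 and 0.0655 (-6.71 ± 0.58). LINC00678 fell from 132 and 142 CPM to 14.4 and 16.2 (-3.09 ± 0.07), LINC00698 from 11.5 and 13.2 to 0.540 and 0.590 (-4.38 ± 0.14), and LINC03077 by 3.09 on the log2 scale. LINC02582 fell from 362 and 408 CPM to 67.8 and 60.3 (-2.52 ± 0.09).

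Of the 81 genes tested between DE and hPSC, 40 were higher in DE and 26 lower, where 75.6% of all 20634 genes tested passed (38.7% higher and 36.8% lower). The median log2 fold change was 0.36 over the 81 and 0.01 over all genes. The share of genes that changed is thus near that of the transcriptome. When all 8 RNA libraries were fitted together, 40 genes passed in place of 66.

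In GFP+ sBC, LINC00261, LINC02381 and LINC00907 were above hPSC, and a set of genes seen in hPSC and DE was at or near 0. LINC00261 had 596 and 511 CPM in GFP+ sBC against 3.12 and 2.95 in hPSC (log2 7.01 ± 0.36, edgeR adjusted p = 9.61e-06) and did not pass against DE (0.62 ± 0.28, adjusted p = 0.085). LINC02381 had 45.5 and 49.4 CPM against 0.0501 and 0.0467 in hPSC (9.38 ± 0.29) and 1.14 and 1.25 in DE (4.79 ± 0.21). LINC00907 had 22.4 and 28.3 CPM in GFP+ sBC and 0.0251 and 0.0234 in hPSC (9.42 ± 0.68), and LINC02197 17.7 and 16.7 against 0.0376 and 0.0701 (7.75 ± 0.68). LINC01370 had 9.18 and 6.97 CPM in GFP+ sBC and 0 in hPSC and DE, at least 445-fold higher than in hPSC and 495-fold than in DE, taking 3 counts summed over a group as the floor. The groups did not overlap in any of these.

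LINC00458 was at 0 in both GFP+ libraries, at least 2342-fold lower than in hPSC and 6240-fold lower than in DE. LINC02413 was at 0 too, at least 1245-fold lower than in DE. LINC02700 was at least 155-fold lower and LINC00698 at least 250-fold lower than in hPSC by the same floor. LINC02617 fell from 190 and 225 CPM in hPSC to 0.134 and 0.0648 (log2 -11.50 ± 0.55), LINC02582 to 0.201 and 0.323 (-11.01 ± 0.55) and LINC00678 to 0.0997 and 0.259 (-10.05 ± 0.44). LINC00707 held 1 count over both GFP+ libraries, a ratio of 2272 in favour of hPSC (counting interval 408 to 89747). These genes cover both those that had fallen and those that had risen in DE.

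In number, 23 of 87 genes tested were higher in GFP+ sBC than in hPSC and 32 lower, where 61.3% of all 23321 genes passed (30.4% higher and 30.9% lower). The median log2 fold change was -0.37, or -0.26 with genes at 0 set at their bound, against 0.04 over all genes. Against DE it was 23 higher and 36 lower, where 60.7% passed (29.9% higher and 30.9% lower), with a median of -0.40 (-0.37 at the bounds) against 0.00. Among the genes at 0 in GFP+ sBC, LINC03078, LINC02830 and LINC02257 were so low in hPSC that the bound was 0.726-fold, 1.34-fold and 2.70-fold. These comparisons share the libraries of GFP+ sBC with each other and those of hPSC or DE with the one above.

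Read by the stage with most FLAG footprints, RNA of the 34 genes highest in GFP+ sBC was tested for 23 against hPSC, with 13 higher and 1 lower. Of the 56 genes highest in DE, 53 were tested between DE and hPSC in RNA, and 31 were higher and 14 lower in DE. Of the 10 highest in hPSC, 9 were tested there, with 1 higher and 7 lower in DE. These counts follow the stage that the choice by FLAG footprints singled out and support nothing.

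Between GFP+ and GFP- sBC, 1 of 65 genes tested differed. LINC00479 had 0.839 and 0.907 CPM in GFP+ sBC and 5.87 and 5.86 in GFP- sBC (log2 -2.74 ± 0.51, edgeR adjusted p = 0.0363). Of all 19797 genes tested, 2.43% passed (0.0808% higher and 2.35% lower). The 5 duct, exocrine and progenitor markers summed to 1628 and 1645 CPM in GFP- sBC and 215 and 364 in GFP+ sBC, and the 5 mesenchyme markers to 236 and 129 against 16.4 and 16.1. The 6 beta-like markers summed to 2423 and 1819 CPM in GFP- sBC and 6411 and 7012 in GFP+ sBC. The 4 other endocrine genes summed to 19646 and 14687 CPM in GFP- sBC and 37783 and 26905 in GFP+ sBC. The part of these cell types in the result was not tested. The call rests on both GFP+ libraries, since without either one adjusted p was 0.265 or 0.272, and 7 of the 65 genes were under an unadjusted p of 0.05. Without GFP- sBC replicate 2, 21 genes passed, 15 of them higher in GFP+ sBC. LINC00261 (256 and 496 CPM in GFP- sBC, log2 0.57 ± 0.38) and LINC02381 (45.5 and 53.1 CPM) did not pass.

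Total footprints changed in the direction of RNA for most genes that passed in both. Their libraries played no part in choosing the genes, but FLAG footprints of the same stages did. Across genes the 2 kinds of footprints ran together (Spearman's rho 0.894 in hPSC and 0.904 in DE). Values here are CPM scaled by TMM (trimmed mean of M values, edgeR's library scaling). The scaling factors were 0.526 and 1.41 for DE replicates 1 and 2, and 1.18 and 1.14 for hPSC, so the DE libraries differed most. In DE replicate 1, 1 gene held 16.3% of the counts. Fits without genes above 5% of a library left all 76 recomputed values of named genes, over all comparisons, on the same side of the threshold. The part of that gene in the difference between the factors was not tested. LINC02413 rose from 0.152 and 0.565 in hPSC to 44.6 and 31.26 in DE (log2 6.67 ± 0.60, edgeR adjusted p = 0.00501), and LINC01612 from 0.0762 and 0.333 to 3.09 and 5.03 (4.26 ± 0.66). LINC02955 rose from 0.343 and 0.399 to 5.99 and 5.49 (3.93 ± 0.29), and LINC00910 from 42.9 and 28.2 to 281 and 311 (3.06 ± 0.26). LINC00479 held 3 counts in hPSC (0.0762 and 0.0333) and rose to 2.52 and 3.33. From its counts over the unscaled library totals the ratio was 45.9 (counting interval 15.4 to 225). None of these 5 had overlapping libraries.

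LINC00698 fell from 3.35 and 5.52 to 0.189 and 0.146 on the same scale (log2 -4.73 ± 0.46, adjusted p = 0.003), LINC00707 from 3.05 and 3.66 to 0.252 and 0.0292 (-4.86 ± 0.79) and LINC03077 from 4.61 and 5.69 to 0.126 and 0.380 (-4.18 ± 0.48). LINC02228, with RNA at 0 in hPSC, fell from 2.59 and 1.40 to 0 and 0.146 (-4.37 ± 0.91). Its FLAG footprints had the opposite order, with 0.645 and 0.959 CPM in hPSC and 2.55 and 1.65 in DE. LINC00261 had 0 and 0.0665 in hPSC and 4.23 and 34.8 in DE, and did not pass (adjusted p = 0.066), nor did LINC00678 with 147 and 145 in hPSC and 7.51 and 31.2 in DE (adjusted p = 0.084). The 2 DE libraries of each differed by several fold, and both genes passed with DESeq2.

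In all, 16 of 76 genes tested were higher and 9 lower in DE total footprints, where 34.1% of all 15454 genes passed (17.2% higher and 16.9% lower). The median log2 fold change was 0.20 against 0.03 over all genes. The FLAG footprints that chose the genes were highest in DE for 56 and in hPSC for 10. Nothing is therefore read from the larger number higher in DE or from the median. The number of calls fell to 2 without hPSC Ribo replicate 1 and to 1 without replicate 2, so nearly all of them need both hPSC libraries, and rose to 37 without DE Ribo replicate 2. LINC01356 (1.46 ± 0.34) passed although its CPM before scaling overlapped between the groups.

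RNA and total footprints were tested together for 71 genes. Of these, 21 passed in both, 38 in RNA only, 3 in footprints only and 9 in neither. In direction, 12 were higher in both, 7 lower in both, none were higher in RNA and lower in footprints, and 2 were lower in RNA and higher in footprints. Those 2 were LINC02582 and LINC03049. The same was not counted over all genes, so nothing particular to these genes is read from the shared direction. LINC03049 had 2.81 and 2.85 CPM of RNA in hPSC and 1.86 and 1.84 in DE, while its total footprints rose by a log2 of 1.29 ± 0.28 with overlapping libraries before scaling.

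**Figure D3:**
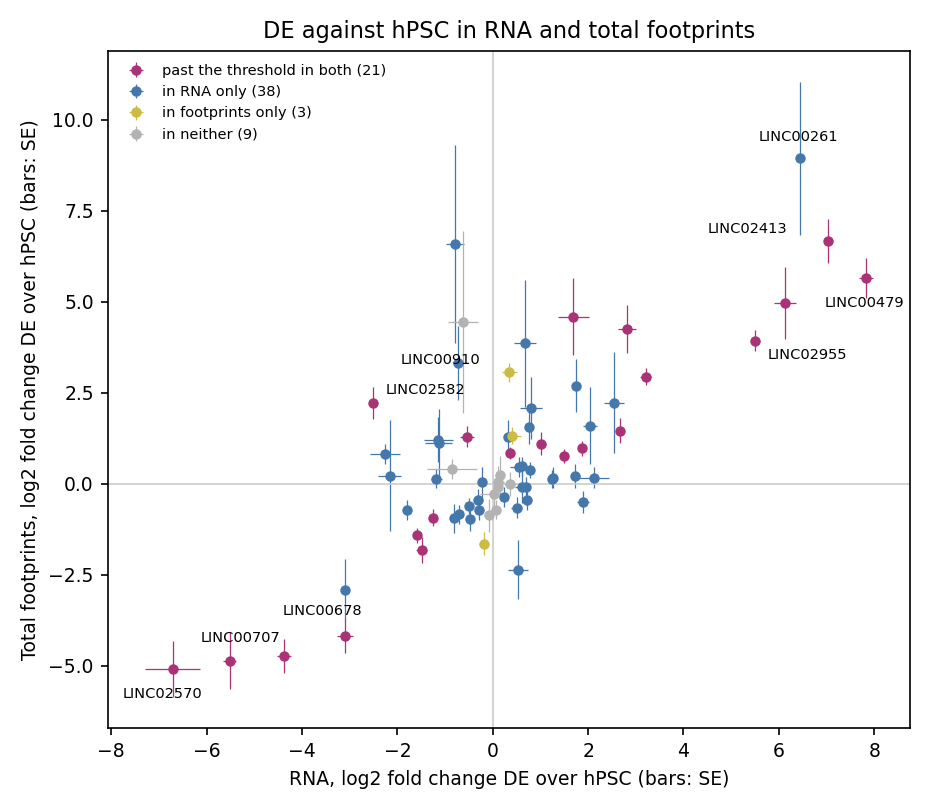
Log2 fold change of DE over hPSC in RNA (x axis) and in total footprints (y axis) for the 71 genes tested in both; bars are standard errors of the fits and colours give which tests passed. LINC02413 and LINC00479 are at the upper right, LINC02570 and LINC00707 at the lower left, and LINC02582 at the upper left.

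Total footprints were then set against RNA of the same stage in 1 model, where a value is the log2 ratio of footprints to RNA with each assay on its own total. Some genes had hardly any RNA. LINC01624 had 162 footprint counts in hPSC and none in RNA, at least 185-fold more on the CPM scale, and LINC02228 at least 128-fold. LINC01222 was at least 44.2-fold higher in footprints in hPSC and 44.9-fold in DE. On the TMM scale of the fit, LINC01905 had a log2 ratio of 7.33 ± 0.39 in hPSC and 8.77 ± 0.42 in DE, LINC02257 7.13 ± 0.35 and 5.37 ± 0.31, and LINC00910 5.06 ± 0.25 and 7.95 ± 0.28. LINC01783 had 11.29 ± 2.51 in hPSC (adjusted p = 0.0131), and without either hPSC RNA library adjusted p was 0.0733 or 0.0708.

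At the other end were abundant RNAs with few footprints. LINC03061 had 1175 and 1412 CPM of RNA in hPSC and 10.9 and 14.5 CPM of total footprints, a log2 ratio of -5.48 ± 0.26 (edgeR adjusted p = 6.73e-06), and -3.98 ± 0.24 in DE. LINC02582 had -8.31 ± 0.21 in hPSC and -3.39 ± 0.17 in DE. LINC02972 (-2.57 ± 0.13), LINC01873 (-2.43 ± 0.11) and LINC02617 (-2.32 ± 0.23) were also lower in footprints in hPSC, with RNA between 59.4 and 225 CPM.

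In hPSC 33 of 89 genes tested were higher in footprints than in RNA and 20 lower, where 64.7% of all 21681 genes passed (28.8% higher and 35.9% lower). In DE it was 32 higher and 21 lower, where 59.6% passed (30% higher and 29.7% lower). Because the genes were chosen for FLAG footprints of the same stages, nothing is read from the higher share. Among the 11 tested genes with a small RNA gene in the span, 8 were higher in footprints and none lower, in hPSC and in DE alike. Among the 78 without one, 25 were higher and 20 lower in hPSC, and 24 higher and 21 lower in DE. Both sets were chosen by FLAG footprints, so nothing is read from this split either. The part of the small RNA genes was not tested.

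The change in that ratio from hPSC to DE passed for 3 genes of 89, all upward, where 0.314% of all genes passed (0.24% higher and 0.0738% lower). LINC02582 had 362 and 408 CPM of RNA in hPSC and 67.8 and 60.3 in DE, while its TMM-scaled total footprints went from 0.343 and 0.565 to 2.15 and 2.16. Its RNA fell and its footprints rose (log2 2.23 ± 0.44, adjusted p = 0.0169), and the ratio changed by 4.92 ± 0.26 (adjusted p = 0.00495). FLAG footprints of LINC02582 were 0.146 and 0.557 CPM in hPSC and 1.67 and 3.79 in DE. The gene had under 5 FLAG counts in hPSC replicate 1 and entered the choice through DE, so these FLAG values add no support. LINC00652 changed by 3.25 ± 0.44 (adjusted p = 0.0471), with RNA of 0.752 and 0.795 CPM in hPSC and 0.194 and 0.109 in DE. LINC00910 changed by 2.89 ± 0.30 (adjusted p = 0.0259), with RNA at 3.20 and 2.43 CPM in hPSC and 3.29 and 3.52 in DE. None of the 3 passed when any 1 RNA library was left out (lowest adjusted p for LINC02582 0.0535). Without DE Ribo replicate 1 the count was 19, and 33 without replicate 2. By DESeq2 25 genes passed, 12 up and 13 down.

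**Figure D4:**
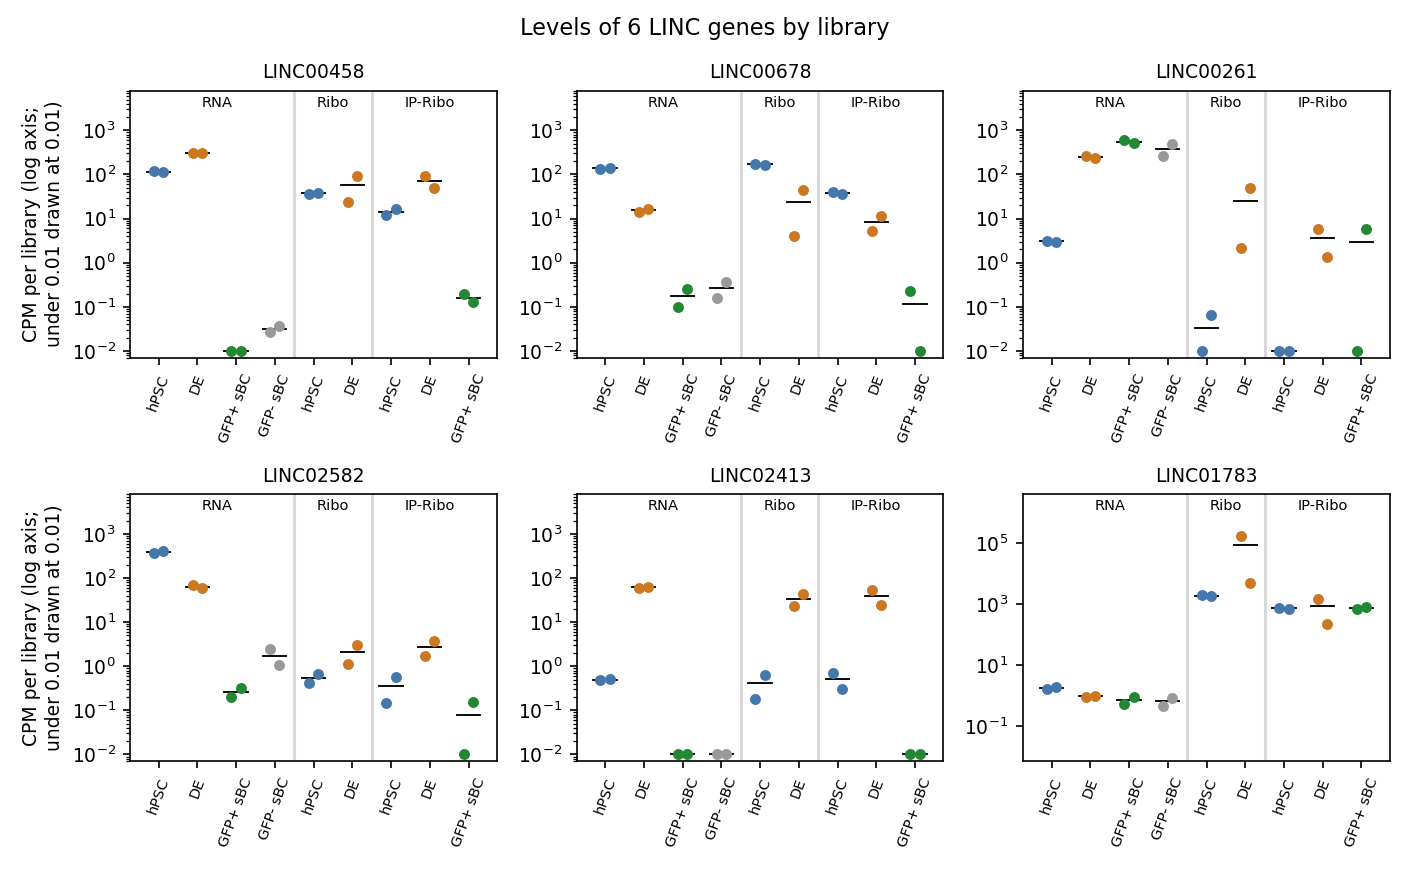
CPM per library (y axis, log axis, values under 0.01 drawn at 0.01) of 6 genes in RNA, total footprints (Ribo) and FLAG footprints (IP-Ribo) by stage; dots are libraries and bars means of 2. LINC02582 is lower in DE than in hPSC in RNA and higher in both kinds of footprints, of which FLAG footprints were used to choose it. LINC00458 and LINC02413 are at 0 in RNA of GFP+ sBC, and LINC01783 has footprints far above its RNA.

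The nearest protein-coding gene was taken from RefSeq for the 98 located genes. FOXA2, a pioneer factor of endoderm, lies 2356 bases from LINC00261 and had RNA of 6.09 and 5.46 CPM in hPSC, 159 and 162 in DE, and 189 and 179 in GFP+ sBC. Its log2 fold change was 4.87 ± 0.06 in DE against hPSC and 4.49 ± 0.22 in GFP+ sBC against hPSC. BDNF, a growth factor gene 20266 bases from LINC00678, fell by 6.98 ± 0.35 on the log2 scale from hPSC to DE. SAMD11, 4231 bases from LINC02593, rose by 6.11 ± 0.11, from 0.552 and 0.421 CPM to 32.0 and 31.8.

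Where a gene and its neighbour both passed between DE and hPSC, 34 of 45 pairs (75.6%) moved the same way, against 97 of 157 pairs (61.8%) of other LINC genes. In GFP+ sBC against hPSC it was 15 of 28 (53.6%) against 118 of 179 (65.9%). LINC02582 fell together with NETO1 (-4.09 ± 0.15), at a distance of 456954 bases. LINC00707 was among the exceptions, since it fell in DE while PRKCQ rose by 1.52 ± 0.07. No test was made of these shares, and pairs differ in distance.

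For scale, 2 further sets of genes were read in the same libraries. Of 13 genes for small proteins once listed as noncoding, all were found. The ratio of FLAG footprint to RNA CPM was 0.960 in hPSC, 1.59 in DE and 0.662 in GFP+ sBC for SMIM26, and 0.792, 2.29 and 0.803 for MTLN, both mitochondrial small proteins, while TUNAR stayed between 0.00933 and 0.0484. Of 15 noncoding RNAs with other names 14 were found. GAS5 and SNHG1, hosts of snoRNAs, had ratios of 1.07 and 7.75 in hPSC and 16 and 102 in GFP+ sBC, while ZFAS1, another snoRNA host, had 0.0908 and 0.0408 and DANCR 0.173 and 0.2. The nuclear RNA MALAT1 had 0.0143 in hPSC and 0.0160 in GFP+ sBC. In total footprints against RNA, 3 of 14 of the noncoding RNAs were higher and 9 lower in hPSC, and 3 of 10 tested small-protein genes were higher and 4 lower.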

How the data were processed

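RNA, total footprints and FLAG footprints were measured in 18 libraries, 2 in each of 9 groups. The authors deposited 1 table of estimated counts per gene, which need not be whole. The submitters' processing notes name Salmon, DESeq2, UMI-tools, cutadapt, Bowtie and the build GRCh38, without roles. Annotation release and use of strand are not given in the sources used here. Footprints were not separated by length or frame in the table, and reads shared by similar genes had been divided among them.

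Counts were rounded and tested over all genes with edgeR 4.0.16 (R 4.3.3), with filterByExpr, TMM scaling, a robust quasi-likelihood fit and Benjamini-Hochberg adjustment. Each comparison used the libraries of its groups, except that GFP+ sBC against hPSC or DE used all 8 RNA libraries, and footprints against RNA used 8 libraries of hPSC and DE. SE is the fold change over the square root of F. Alternatives were DESeq2 1.42.0, other scaling and filters, a replicate block, leaving out genes above 5% of a library and leaving out each library. The fits were tested on simulated data. CPM used all rows, and intervals cover counting error only.

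The genes and lists were chosen with earlier results of these data known. Named were the 20 genes with most FLAG footprints, the 6 highest of each stage, the 5 largest changes per comparison and direction with groups that do not overlap and 20 or more counts, 3 fixed genes (LINC00261, LINC00458 and LINC00678), the 3 on each side of the limit, and genes with under 5 RNA counts. LINC02955 and LINC03078, and the genes named only for shared or overlapping sequence or a promoter match, fall outside that rule and were chosen after their values were seen. Spans and promoters are RefSeq's (GRCh38.p14). Replicate numbers were not taken as pairs.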

Additional observations from a re-analysis of the deposited data

Results flagged for a closer look

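For 3 genes the ratio of total footprints to RNA differed between DE and hPSC by the test of that difference (edgeR's quasi-likelihood test, adjusted over 21681 genes). LINC02582 changed by 4.92 ± 0.26 on the log2 scale (adjusted p = 0.00495), LINC00652 by 3.25 ± 0.44 (0.0471) and LINC00910 by 2.89 ± 0.30 (0.0259). Each was higher in DE, the stage in which the FLAG footprints that chose the genes were highest for all 3. None of the 3 passed when any 1 RNA library was left out, and only LINC02582 passed with the replicate block. LINC00910 contains the U2 pseudogene RNU2-4P, whose part in the result was not tested.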

How the results depend on the processing

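Counts of genes past the threshold are given here. For RNA of DE against hPSC the 66 became 40 in the fit of all 8 RNA libraries, and 59 to 63 when 1 library was left out. For GFP+ against GFP- sBC the 1 became 5 with no filter, 3 with DESeq2, 3 with the replicate block and 5 in the fit of all 8 RNA libraries, and 0 to 21 when 1 library was left out. For total footprints of DE against hPSC the 25 became 38 with no filter, 21 with the replicate block and 1 to 37 when 1 library was left out. For the change of footprints over RNA the 3 became 5 with no filter, 25 with DESeq2, 1 with the replicate block and 2 with RLE scaling, and 0 to 33 when 1 library was left out. Leaving out 1 library gave 45 to 71 for GFP+ sBC against hPSC, 46 to 70 against DE, 41 to 63 for footprints against RNA in hPSC and 39 to 60 in DE. The cause was not tested. Same-numbered libraries correlated between -0.102 and 0.104, so the numbers were not taken as pairs. Crossing the numbers in total footprints, chosen after seeing the data, gave 27. With 10 counts in place of 5 in the choice of genes, 89 of the 100 were kept. Of 992 recomputed values of named genes 63 lost the threshold, 8 gained it and none reversed.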
